A study of Mus musculus with 18 samples.

Results

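The protocadherins of 10T1/2 cells (C3H10T1/2, a multipotent mouse fibroblast line) were described across WT cells and a pair of FOXS1 knockout clones. Members were all protein-coding genes whose symbol starts with Pcdh, which gave 69 of the 54532 genes in the count table, or of its 22046 protein-coding genes. By symbol and position, 57 were clustered genes, with 14 in the alpha, 22 in the beta and 21 in the gamma cluster, and 12 were non-clustered. The 18 libraries formed 6 groups of 3. WT cells, FOXS1 KO clone 1 and FOXS1 KO clone 2 were each sampled without treatment (uninduced) and after exposure to TGF-β1 (1 nM, 12 h) with DMII added next (48 h), which is called TGF-β1 + DMII stimulated. DMII is an adipogenic cocktail that contains insulin, indomethacin, dexamethasone and the phosphodiesterase inhibitor IBMX. Both knockout lines were made with CRISPR-Cas9 and each grew from a single cell. A difference between a clone and WT therefore cannot be told apart from the history of that clone, and nothing in the labels says that replicate libraries came from separate cultures, so p-values measure the spread between these libraries.

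Protocadherins are cadherin-type adhesion proteins of the cell membrane, best known from the nervous system. In the clustered genes, each variable first exon has its own promoter, and a cell transcribes only some of them. CTCF and cohesin join a chosen promoter to a distant enhancer, and DNA methylation silences promoters that are not used. Alpha and gamma transcripts splice their variable exon to constant exons shared by the cluster, whereas each beta gene is a single exon. The resulting set of isoforms gives a neuron its surface identity. The C-type genes at the end of the alpha and gamma clusters, such as Pcdhgc3, are used more evenly between cells. Non-clustered protocadherins have separate promoters and act in cell sorting, migration and signalling.

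Of the 6 non-clustered members with enough counts to test, 5 are shown first. In GRCm38, Pcdh7 lies at chr5:57717967-58133230, Pcdh9 at chr14:93013410-93890679, Pcdh10 at chr3:45378398-45435623, Pcdh18 at chr3:49743296-49757325 and Pcdh19 at chrX:133582860-133688987. The promoter windows of these genes are printed because their differences between groups ran from small (Pcdh18) to wide (Pcdh10). They run from 250 bases before to 50 bases after the start in RefSeq (GRCm38.p6), 5′ to 3′ on the strand of the gene, at chr5:57717831-57718130, chr14:93890630-93890929, chr3:45378148-45378447, chr3:49757267-49757566 and chrX:133688944-133689243, with CpG dinucleotides in capitals.
Pcdh7: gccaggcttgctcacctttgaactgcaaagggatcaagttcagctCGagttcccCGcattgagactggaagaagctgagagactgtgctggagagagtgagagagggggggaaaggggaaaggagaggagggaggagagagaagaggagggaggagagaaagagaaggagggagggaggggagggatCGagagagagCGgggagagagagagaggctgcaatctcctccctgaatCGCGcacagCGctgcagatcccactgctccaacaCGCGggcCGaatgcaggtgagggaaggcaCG
Pcdh9: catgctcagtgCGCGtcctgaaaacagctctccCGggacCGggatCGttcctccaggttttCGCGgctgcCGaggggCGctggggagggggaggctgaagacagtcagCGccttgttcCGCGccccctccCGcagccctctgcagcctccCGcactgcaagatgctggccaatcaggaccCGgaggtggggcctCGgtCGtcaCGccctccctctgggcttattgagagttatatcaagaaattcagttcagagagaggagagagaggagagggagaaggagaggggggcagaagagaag
Pcdh10: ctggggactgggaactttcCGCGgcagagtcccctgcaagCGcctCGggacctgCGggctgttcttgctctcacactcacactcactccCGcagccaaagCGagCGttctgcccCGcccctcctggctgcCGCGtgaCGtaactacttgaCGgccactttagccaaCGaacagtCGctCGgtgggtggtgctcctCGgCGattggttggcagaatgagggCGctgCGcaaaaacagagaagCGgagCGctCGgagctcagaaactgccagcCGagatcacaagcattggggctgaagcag
Pcdh18: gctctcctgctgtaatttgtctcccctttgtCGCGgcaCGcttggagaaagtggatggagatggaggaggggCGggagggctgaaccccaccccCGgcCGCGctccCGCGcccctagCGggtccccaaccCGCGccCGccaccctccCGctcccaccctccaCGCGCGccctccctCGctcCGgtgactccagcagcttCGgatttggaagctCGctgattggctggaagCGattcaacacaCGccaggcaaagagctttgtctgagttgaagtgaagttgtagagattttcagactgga
Pcdh19: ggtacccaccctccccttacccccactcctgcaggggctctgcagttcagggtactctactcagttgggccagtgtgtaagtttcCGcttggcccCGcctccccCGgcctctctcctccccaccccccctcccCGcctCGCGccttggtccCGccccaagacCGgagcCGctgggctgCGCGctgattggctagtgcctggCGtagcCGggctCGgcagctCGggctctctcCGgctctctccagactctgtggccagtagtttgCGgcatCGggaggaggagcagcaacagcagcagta

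These windows held 11 CpG dinucleotides in Pcdh7, 18 in Pcdh9, 24 in Pcdh10, 23 in Pcdh18 and 18 in Pcdh19, against a median of 7 in 32851 promoters of the same length. Their GC content ran from 59.3% in Pcdh7 to 67.7% in Pcdh19, and the median of all promoters was 52.7%. On either strand none of the 5 held TGTTTAC (a forkhead core, in 3.65% of all promoters), TGACGTCA (a full cAMP response element, 1.79%), GTCTAGAC (a SMAD palindrome, 0.213%) or TATAAA (13.6%). The absence of these letters says nothing about binding elsewhere. Pcdh10, which was near zero in WT cells, and Pcdh18, which was among the steadiest members, were both CpG-rich.

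Library totals ran from 15576685 to 42005596 counts (median 20178953.5), the deepest being clone 2 uninduced replicate 1, and protocadherins held 0.0729% to 0.110% of them. Across genes, libraries of the same group correlated with r of 0.963 to 0.993. All 7 fibroblast markers exceeded 1 CPM (counts per 1000000 counts, with library sizes scaled by TMM) in WT and clone 1 cells, and 6 did in clone 2, where Thy1 was at 0.616 CPM uninduced against 59.6 in WT. Of the 8 neuron markers, 2 or 3 exceeded 1 CPM in a group. Foxs1 itself was at 2.23 CPM in uninduced and 2.51 in stimulated WT cells, at 25.7 and 54.4 in clone 1 and at 22.6 and 39.8 in clone 2, so the gene total was higher in the libraries labelled knockout and does not show the edit. In bulk RNA, fewer cells that express a gene and less RNA per cell cannot be told apart, and neither can 1 isoform in every cell and different isoforms in different cells.

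The cells used the beta and gamma clusters and hardly any of the alpha cluster. All clustered members lie on chromosome 18 of GRCm38, alpha at 36930184-37187661, beta at 37264938-37524479 and gamma at 37661793-37841873. The 14 alpha genes had 101 counts in all 18 libraries together, 59 of them from Pcdha9 and 15 from Pcdhac2, and 7 alpha genes had no count. The beta genes had 95930 counts and the gamma genes 152404. With at least 10 counts summed over a group taken as detection, 19 to 21 of 22 beta genes and 16 to 19 of 21 gamma genes were detected in each of the 6 groups, but 0 to 2 of 14 alpha genes. Summed over the cluster, alpha had 22 counts in uninduced and 13 in stimulated WT cells, 15 and 2 in clone 1, and 32 and 17 in clone 2. Counts of this size leave isoform choice in the alpha cluster unresolved at this depth.

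A filter on low counts (filterByExpr of edgeR with a minimum count of 10) kept 45 members, 21 beta, 18 gamma and 6 non-clustered, among 14317 genes tested. The members left out were all 14 alpha genes, Pcdhb1 with no count, Pcdhga10, Pcdhgb4 and Pcdhgb5 with 1, 40 and 111 counts, and Pcdh8, Pcdh15, Pcdh12, Pcdh17, Pcdh20 and Pcdh11x with 0 to 21 counts over all libraries. Reads on shared exons limit how well the counts tell isoforms apart. By the GENCODE M21 annotation, the alpha genes shared 48.6% to 93.0% of their exonic bases with other genes and the gamma genes 31.5% to 100%. Beta genes shared no exonic base except Pcdhb12 (63.5%), Pcdhb21 (9.67%) and Pcdhb22 (6.88%).

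Isoform choice was described by the share of each gene in the counts of its cluster, with no test, and by an effective number of isoforms, which is the number of equally used genes that would give the same spread of shares (inverse of the summed squared shares). In the beta cluster, Pcdhb16 held the largest share in every group. It held 28.4% ± 0.469 (SD, n = 3) in uninduced and 31.6% ± 1.55 in stimulated WT cells, 37.2% ± 1.16 and 39.9% ± 1.20 in clone 1, and 27.8% ± 0.766 and 30.8% ± 1.31 in clone 2. Clone 1 thus leaned further on Pcdhb16 than WT and clone 2 did, and its libraries did not overlap with theirs in either treatment. Per kilobase of unshared exon, the mean level of Pcdhb16 ran from 9.80 to 21.3 CPM over the 6 groups.

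By share of counts, not corrected for length, Pcdhb17 and Pcdhb14 came next. Pcdhb17 held 14.8% ± 1.54 of the beta counts in uninduced WT cells, 11.5% ± 0.939 in clone 1 and 17.0% ± 0.447 in clone 2. Pcdhb14 held 13.2% ± 0.586, 11.3% ± 0.800 and 11% ± 0.188. After stimulation the shares of Pcdhb17 were 12.5%, 10.9% and 12.8% in WT, clone 1 and clone 2, and those of Pcdhb14 were 12.9%, 10.3% and 9.88%. By mean share Pcdhb17 was ahead of Pcdhb14 in every group except stimulated WT cells, where the difference was within the SD. In uninduced clone 1 the difference was also within the SD. Per kilobase of unshared exon, Pcdhb14 (8695 bases) ranked lower. It was at 5.09 CPM in uninduced WT cells, against 10.6 for Pcdhb17 and 7.15 for Pcdhb9. In uninduced clone 1 it was at 3.89, against 6.05 for Pcdhb15, and in uninduced clone 2 at 4.15, against 6.44 for Pcdhb20.

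Pcdhb11 set clone 1 apart from WT and clone 2, and Pcdhb22 set both clones apart from WT. Pcdhb11 held 7.39% of the beta counts in uninduced WT cells and 6.16% in clone 2, but 1.85% in clone 1. After stimulation it held 6.31% in WT, 3.55% in clone 2 and 1.49% in clone 1. Pcdhb22, the last gene of the cluster, held 3.00% and 3.27% in uninduced and stimulated WT cells, 6.81% and 6.86% in clone 1, and 6.53% and 7.43% in clone 2. The share of Pcdhb22 was thus larger in both clones, and that of Pcdhb11 was smallest in clone 1. The effective number of beta isoforms was 7.23 ± 0.169 in uninduced WT cells, 5.51 ± 0.220 in clone 1 and 7.20 ± 0.137 in clone 2. After stimulation it was 6.64 ± 0.385, 5.02 ± 0.258 and 6.83 ± 0.292. Clone 1 had the lowest values in both treatments, without overlap with WT or clone 2.

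**Figure D1:**
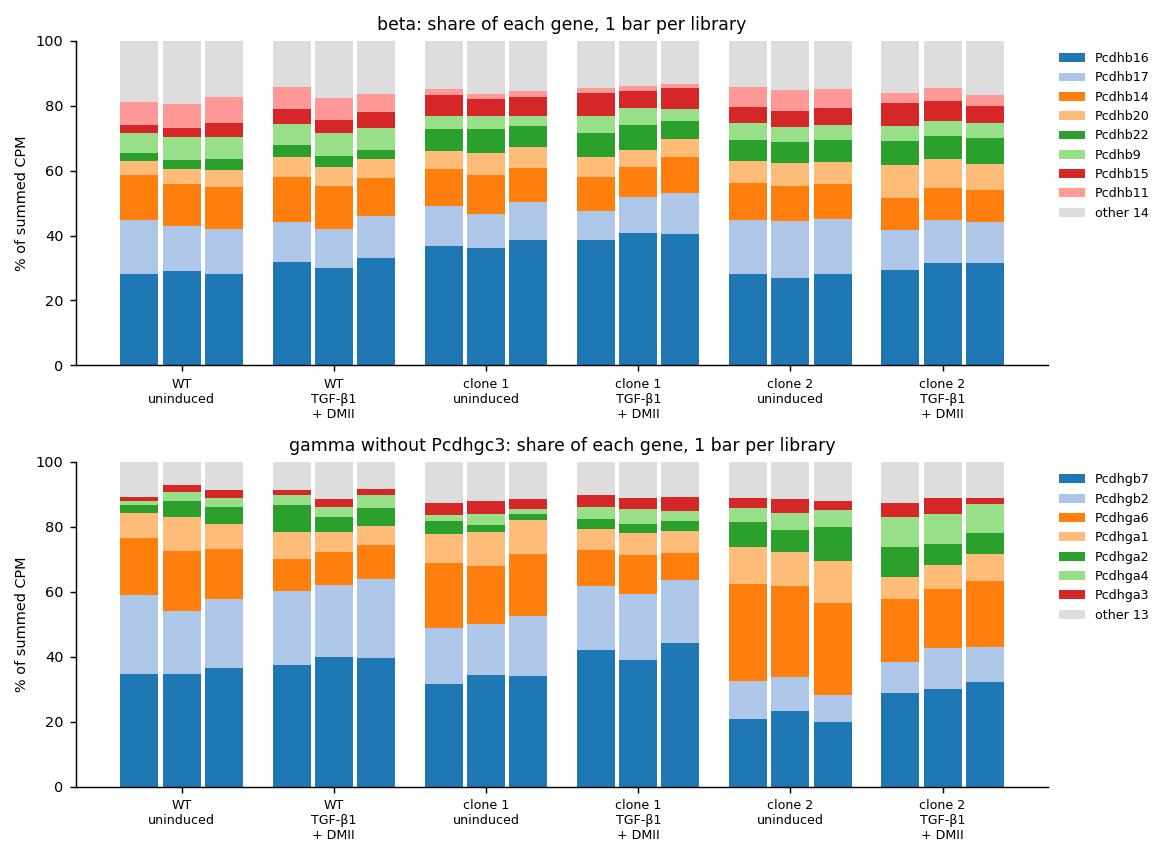
Share of each gene in the summed CPM of the beta cluster (top) and of the gamma cluster without Pcdhgc3 (bottom), in percent, with 1 stacked bar per library and the 6 groups along the x axis. Pcdhb16 is the largest beta segment in all 18 bars and is largest in clone 1 (37.2% and 39.9%), whereas in the gamma cluster the Pcdhgb7 and Pcdhgb2 segments are smaller in clone 2.

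The gamma cluster was dominated by Pcdhgc3, a C-type isoform. It held 72.7% ± 0.763 of the gamma counts in uninduced WT cells, 78.2% ± 0.719 in clone 1 and 81.3% ± 0.668 in clone 2. After stimulation it held 78.2% ± 0.942, 84.3% ± 0.667 and 88.3% ± 0.244. The share was thus larger in each clone than in WT in the same treatment, and larger after stimulation in each genotype, with no overlap between those groups. The effective number of gamma isoforms was 1.84 and 1.61 in uninduced and stimulated WT cells, 1.61 and 1.40 in clone 1, and 1.5 and 1.28 in clone 2. The antisense gene BC037039 (chr18:37805718-37807922) overlaps the start of Pcdhgc3, with 3939 counts against 122947 for Pcdhgc3 over all libraries, and whether the counting used strand is not stated, so reads of this pair cannot be told apart where they overlap.

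Without Pcdhgc3, the gamma counts were spread over several isoforms. Pcdhgb7 held 35.3% of the remaining counts in uninduced WT cells, 33.4% in clone 1 and 21.3% in clone 2, and 38.9%, 41.8% and 30.4% after stimulation. Pcdhgb2 held 21.5%, 17.2% and 10.1% uninduced, and 23.2%, 19.8% and 11% after stimulation. Pcdhga6 went the other way in clone 2, with 17.2%, 19.0% and 28.8% uninduced and 10.2%, 10.4% and 19.3% after stimulation. Pcdhga1 held 8.66%, 9.93% and 11.7% uninduced, above Pcdhgb2 in clone 2, and 6.79%, 6.82% and 7.53% after stimulation. The effective number without Pcdhgc3 was 4.69 ± 0.118 and 4.40 ± 0.181 in WT cells, 5.22 ± 0.252 and 4.24 ± 0.291 in clone 1, and 6.03 ± 0.165 and 6.04 ± 0.412 in clone 2. Gamma isoform use outside Pcdhgc3 was thus most even in clone 2 in both treatments, whereas the effective number of beta isoforms in clone 2 differed from that of WT by less than the SD. That closeness depended on the measure. Per kilobase of unshared exon the beta value was 8.33 ± 0.167 in uninduced clone 2 and 8.86 ± 0.285 in uninduced WT. As the exponential of the Shannon entropy it was 10.3 ± 0.118 and 10.8 ± 0.322, in both cases a difference above the SD.

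The overlap of isoform use between libraries, the sum over genes of the smaller of both shares, placed these differences on 1 scale. Between beta profiles of the same group the mean overlap was 95.1%, and between treatments of the same genotype it was 91.7%. Between genotypes under the same treatment it was 83.2% for clone 1 and WT, 87.5% for clone 2 and WT, and 86.3% for the clones. Beta isoform use thus differed more between genotypes than between treatments. In the gamma cluster without Pcdhgc3 the mean overlap was 92.3% within groups, 84.6% between treatments, 87.6% for clone 1 and WT, 73.1% for clone 2 and WT, and 76.9% for the clones. Here clone 2 was the genotype that stood apart.

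Stimulation was followed by lower levels of nearly the whole beta cluster in every genotype. The summed beta level was 334 ± 12.6 CPM (SD, n = 3) in uninduced and 170 ± 3.28 in stimulated WT cells, 299 ± 8.60 and 153 ± 1.91 in clone 1, and 329 ± 12.3 and 166 ± 7.86 in clone 2. In no genotype did uninduced and stimulated libraries overlap. Within a treatment clone 1 had the lowest sums, below every library of WT and clone 2. Of the 63 fits of a beta gene to stimulation, 62 were below 0. The median log2 fold change over the 21 tested beta genes was -0.90 in WT, -1.11 in clone 1 and -1.05 in clone 2, and over all tested genes it was -0.04, -0.02 and -0.02. Markers of other cell types also moved with stimulation. The 6 Schwann or neural crest markers summed to 66.9 to 75.2 CPM in uninduced and 4.45 to 5.31 in stimulated WT libraries, 16.03 to 21.68 and 5.01 to 6.87 in clone 1, and 38.8 to 48.0 and 10.5 to 11.9 in clone 2. S100b was the largest part of that sum in every group, 1 or 2 of the 6 exceeded 1 CPM in a group, and Sox10 and Foxd3 were at 0 in all libraries. The 4 endothelial markers summed to 5.03 to 7.92 CPM in uninduced WT libraries, where Tek led, and to at most 0.828 in every other group. Their part in the lower beta levels was not tested.

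**Figure D2:**
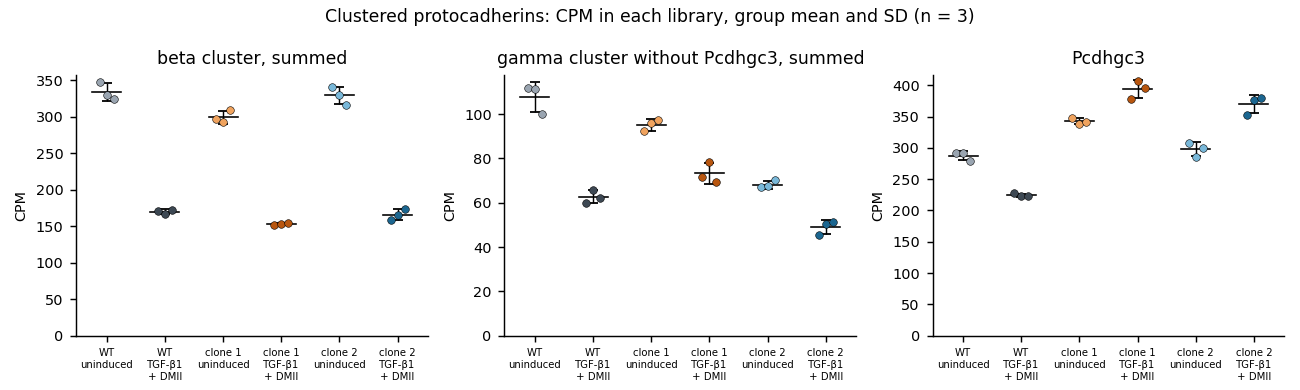
Summed CPM of the beta cluster, summed CPM of the gamma cluster without Pcdhgc3, and CPM of Pcdhgc3, with 1 point per library, the group mean as a line and the SD as a bar (n = 3). Beta sums lie between 151 and 174 CPM in the 9 stimulated libraries and between 292 and 348 in the 9 uninduced ones, and Pcdhgc3 is lower after stimulation in WT and higher in both clones.

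A gene was called where edgeR's quasi-likelihood test gave a Benjamini-Hochberg adjusted p below 0.05 over all 14317 genes and the log2 fold change exceeded 1 in either direction. In WT cells stimulation raised 1 member, against a background of 6.25% of all tested genes called higher, and lowered 13, against 13.6% called lower. The counts were 1 raised (background 5.95%) and 15 lowered (10.7%) in clone 1, and 1 raised (6.46%) and 12 lowered (11.2%) in clone 2. Of the 21 beta genes, 9 fell in WT, 12 in clone 1 and 9 in clone 2, and without a fold threshold 19, 18 and 17 passed the adjusted p, all of them downward. The share of all tested genes past the adjusted p without a fold threshold was not counted, so counts of that kind stand without a background. The 10 members that fell in all 3 genotypes were 8 beta genes (Pcdhb4, Pcdhb8, Pcdhb10, Pcdhb11, Pcdhb13, Pcdhb14, Pcdhb17 and Pcdhb19), Pcdhga6 and Pcdh1. Pcdh7 rose in all 3. The share of all tested genes called in all 3 genotypes was not counted, so these joint counts also stand without a background.

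Among the abundant beta genes, Pcdhb17 was at 57.7, 45.9 and 45.1 CPM in uninduced WT libraries and at 21.26, 19.99 and 22.44 in stimulated ones. Its log2 fold change was -1.22 ± 0.11 (SE, adjusted p = 3.26e-11) in WT, -1.04 ± 0.11 in clone 1 and -1.40 ± 0.11 in clone 2. The clone 1 value came to -0.99 without clone 1 uninduced replicate 3 and to -0.91 without clone 1 stimulated replicate 1, past the adjusted p but short of the fold threshold. Pcdhb14 had 48.3, 43.1 and 41.3 CPM in uninduced and 23.6, 21.7 and 20.1 in stimulated WT libraries, a log2 fold change of -1.02 ± 0.09, with -1.11 and -1.14 in the clones. In WT it came to -0.95 without WT uninduced replicate 1 and likewise to -0.95 without WT stimulated replicate 3. Pcdhb16, the main isoform, had 97.8, 95.6 and 91.2 CPM in uninduced and 54.0, 49.9 and 57.1 in stimulated WT libraries. Its log2 fold change was -0.82 ± 0.07 (adjusted p = 5.59e-12) in WT, -0.87 in clone 1 and -0.84 in clone 2, each past the adjusted p and short of the fold threshold.

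The largest falls in the beta cluster belonged to less abundant genes. Pcdhb13 was at 5.24, 4.87 and 3.24 CPM in uninduced and at 0.489, 0.820 and 0.451 in stimulated WT libraries. It fell by 2.90 ± 0.42 on the log2 scale (adjusted p = 5.66e-07) in WT, by 2.25 ± 0.56 in clone 1 and by 2.07 ± 0.48 in clone 2. Pcdhb10 fell by 1.88 ± 0.30 in WT, 1.27 ± 0.33 in clone 1 and 1.20 ± 0.33 in clone 2, the last value coming to -0.87 without clone 2 uninduced replicate 2. In WT cells the uninduced and stimulated libraries of both genes did not overlap.

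**Figure D3:**
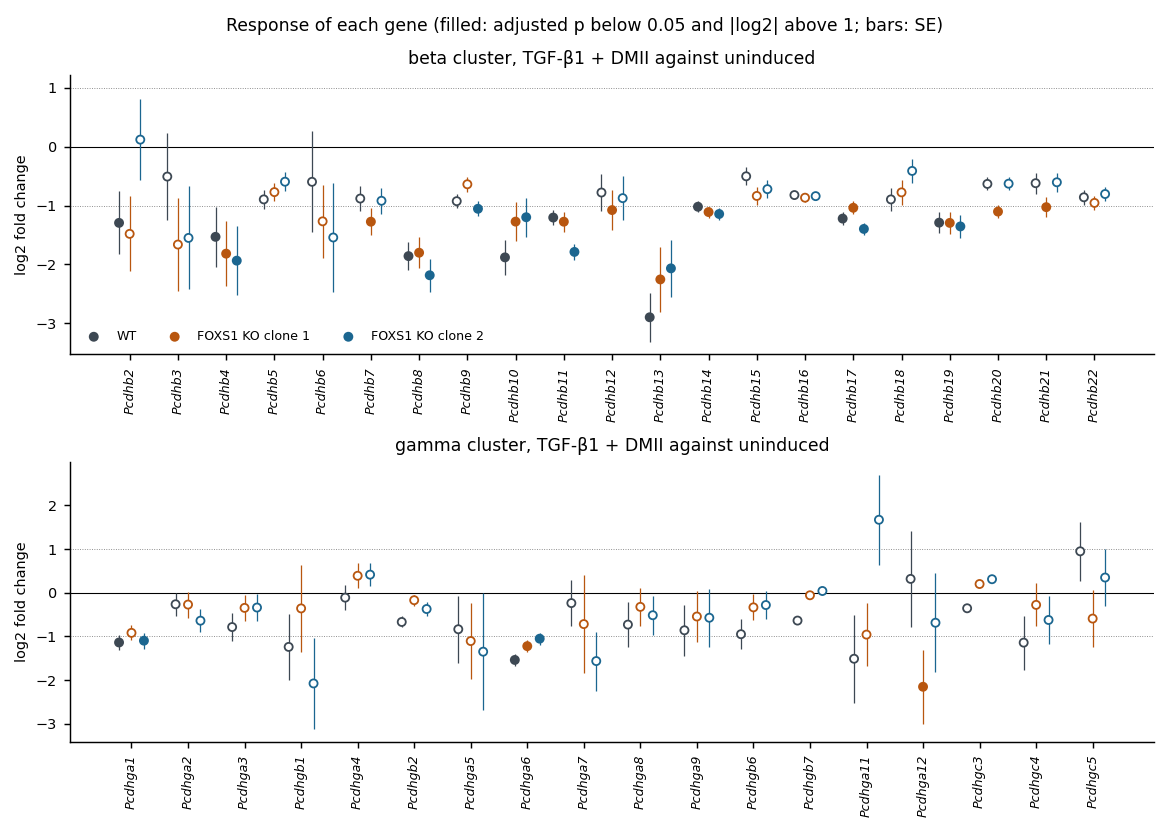
Log2 fold change of each tested beta (top) and gamma (bottom) gene after TGF-β1 + DMII, in 5′ to 3′ order, for WT, clone 1 and clone 2, with the SE as a bar and filled points for called genes. Beta points lie below 0 except 1 of the 63, and Pcdhgc3 lies at -0.35 in WT and at 0.20 and 0.31 in the clones.

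The mean summed level of the gamma cluster was lower after stimulation in WT and higher in the clones. It was 395 CPM in uninduced and 287 in stimulated WT cells, 438 and 467 in clone 1, and 366 and 418 in clone 2. Without Pcdhgc3 the sums were 108 and 62.7 CPM in WT, 95.2 and 73.2 in clone 1, and 68.2 and 49.1 in clone 2. Of the 18 tested gamma genes 2 fell in each genotype, against the backgrounds of 13.6%, 10.7% and 11.2% given above, while 16, 16 and 13 had a value below 0. Without a fold threshold, and so without a background, 7, 3 and 4 passed the adjusted p downward and 0, 1 and 1 upward. Pcdhga6, an abundant gamma isoform, was at 19.7, 20.6 and 15.5 CPM in uninduced and at 6.01, 6.65 and 6.44 in stimulated WT libraries. It fell by 1.54 ± 0.14 on the log2 scale in WT (adjusted p = 8.27e-11), by 1.22 ± 0.14 in clone 1 and by 1.05 ± 0.14 in clone 2, the last value coming to -0.98 without clone 2 stimulated replicate 1.

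Pcdhgc3 moved in opposite directions in WT and in the clones, within the fold threshold. It had 291, 291 and 279 CPM in uninduced and 227, 223 and 223 in stimulated WT libraries. Clone 1 had 348, 339 and 341 CPM uninduced and 379, 407 and 395 stimulated, and in clone 2 it had 307, 286 and 300 uninduced and 353, 376 and 379 stimulated. Within each genotype the uninduced and stimulated libraries did not overlap. The log2 fold change was -0.35 ± 0.04 in WT (adjusted p = 3.90e-08), 0.20 ± 0.04 in clone 1 (adjusted p = 0.000244) and 0.31 ± 0.04 in clone 2 (adjusted p = 4.44e-07). The difference in response from WT was 0.56 ± 0.06 in clone 1 (adjusted p = 1.83e-08) and 0.67 ± 0.06 in clone 2 (adjusted p = 5.83e-10). After stimulation Pcdhgc3 was thus above WT by 0.81 ± 0.04 in clone 1 and by 0.72 ± 0.04 in clone 2. Since both clones were set against the same WT libraries, these are not independent.

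Differences in response that passed both thresholds were few. For clone 1 against WT, 1 member was called higher (background 5.34%) and 1 lower (background 3.46%), Pcdh9 and Pcdh1. For clone 2 against WT 0 members were called higher (background 4.89%) and 0 lower (background 2.96%) by edgeR's test, with 8 at an unadjusted p below 0.05, 6 past the adjusted p regardless of fold, and 1 called by DESeq2 (Pcdhga11). Past the adjusted p alone, where no background was counted, there were 9 members for clone 1 and 6 for clone 2. Of these, 5 were in both lists, namely Pcdh7, Pcdh18, Pcdh19, Pcdhgb7 and Pcdhgc3. For Pcdhgb7 the difference was 0.58 ± 0.12 in clone 1 (adjusted p = 0.000511) and 0.68 ± 0.13 in clone 2 (adjusted p = 0.000158). Its log2 fold change on stimulation was -0.64 ± 0.09 in WT (adjusted p = 3.28e-07), -0.06 ± 0.09 in clone 1 and 0.04 ± 0.10 in clone 2.

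Between uninduced clone 1 and WT cells 5 members were higher (background 6.32%) and 7 lower (background 8.73%). For uninduced clone 2 the counts were 4 higher (background 5.54%) and 8 lower (background 9.56%). After stimulation clone 1 had 7 higher (background 9.42%) and 7 lower (background 9.60%), and clone 2 had 6 higher (background 7.95%) and 5 lower (background 8.94%). Over the 4 comparisons 26 of the 45 tested members were called at least once (57.8%), against 4452 of the 14317 tested genes (background 31.1%). Those called in the same direction in both uninduced clones were Pcdhb22 and Pcdh10 (higher) and Pcdhb10, Pcdhb13 and Pcdh7 (lower). In stimulated cells they were Pcdhga8 and Pcdhgb6 (higher) and Pcdhb12 and Pcdhga7 (lower). Pcdh1 was called in opposite directions in the clones under both treatments. For calls shared by both clones no share over all genes was counted.

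Beta genes that were called lower in both clones in the same treatment were of low abundance. Abundant ones could also be lower in both without a call. Pcdhb14 had a mean of 44.2 CPM in uninduced WT cells, 33.8 in clone 1 and 36.1 in clone 2. Pcdhb13 had 5.24, 4.87 and 3.24 CPM in uninduced WT libraries, 0.563, 0.858 and 0.983 in clone 1 and 1.72, 0.885 and 1.74 in clone 2, with no overlap between WT and either clone. Its log2 fold change was -2.46 ± 0.41 in clone 1 (adjusted p = 7.56e-06) and -1.60 ± 0.37 in clone 2 (adjusted p = 0.000610). After stimulation it was lower in clone 1 by 1.82 ± 0.57, with an adjusted p of 0.0508 without WT stimulated replicate 2 and of 0.0544 without clone 1 stimulated replicate 2. Pcdhb10 had 3.67, 6.76 and 5.64 CPM in uninduced WT libraries, 2.00, 2.25 and 1.76 in clone 1 and 2.03, 3.19 and 1.39 in clone 2, and was lower by 1.42 ± 0.29 and 1.28 ± 0.28 on the log2 scale.

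Pcdhb22 went the other way. It had 9.31, 9.69 and 10.9 CPM in uninduced WT libraries, 19.6, 21.8 and 19.6 in clone 1 and 22.5, 21.2 and 20.7 in clone 2, so that every clone library was above every WT library. The log2 fold change was 1.02 ± 0.12 in clone 1 (adjusted p = 2.31e-08) and 1.10 ± 0.12 in clone 2 (adjusted p = 3.78e-09). In clone 1 it lay at the fold threshold and came to 0.97 without WT uninduced replicate 1, to 1.00 (just under 1) without WT uninduced replicate 2 and to 0.97 without clone 1 uninduced replicate 2. After stimulation it was 0.92 ± 0.13 in clone 1, short of the fold threshold, and 1.16 ± 0.13 in clone 2. Pcdhb12 was lower in both stimulated clones, by 1.01 ± 0.34 in clone 1 (adjusted p = 0.0125) and by 1.35 ± 0.36 in clone 2 (adjusted p = 0.00240), but most of its exonic bases are shared with another gene. The clone 1 value came to -0.76 without WT stimulated replicate 1 and to -0.83 without clone 1 stimulated replicate 2, and it lay just under the fold threshold (-0.999 to -0.996) by DESeq2, with DESeq2 size factors and in the fit of the compared groups alone. The clone 2 value came to -2.14 without clone 2 stimulated replicate 3.

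Pcdhb11 separated the clones. It had 23.8, 24.1 and 25.9 CPM in uninduced WT libraries and 20.2, 21.6 and 18.9 in clone 2, but 5.84, 4.88 and 5.90 in clone 1. After stimulation it had 11.4, 11 and 9.73 CPM in WT, 4.93, 6.93 and 5.83 in clone 2 and 2.50, 2.69 and 1.64 in clone 1. Clone 1 libraries were below those of WT and clone 2 in both treatments. Against WT it was lower in clone 1 by 2.15 ± 0.14 uninduced (adjusted p = 6.42e-14) and by 2.22 ± 0.16 stimulated (adjusted p = 4.16e-13). Against clone 2 it was lower by 1.87 ± 0.14 and 1.36 ± 0.17. In clone 2 the difference from WT was -0.28 ± 0.12 uninduced (adjusted p = 0.0544) and -0.86 ± 0.15 stimulated (adjusted p = 8.47e-06).

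**Figure D4:**
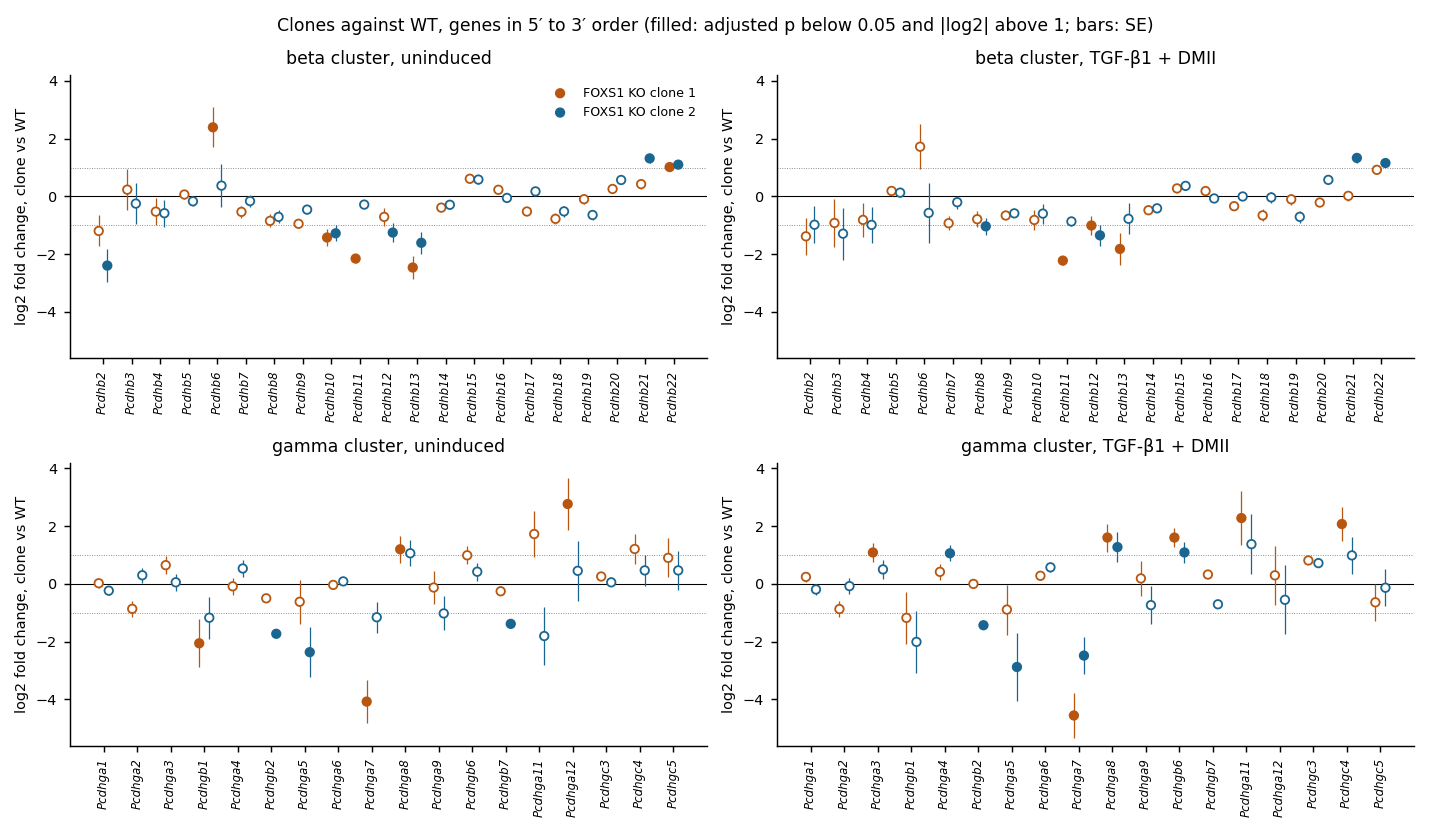
Log2 fold change of each tested beta (top) and gamma (bottom) gene in each clone against WT, in uninduced (left) and TGF-β1 + DMII stimulated cells (right), with genes in 5′ to 3′ order, the SE as a bar and filled points for called genes. Pcdhb11 lies at -2.15 and -2.22 in clone 1, Pcdhb21 at 1.32 and 1.33 in clone 2, and Pcdhga7 at -4.08 and -4.56 in clone 1.

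Along the cluster, the values of the clones against WT tended to be higher for genes nearer the 3′ end of the beta cluster. Spearman's rho between gene order and log2 fold change over the 21 beta genes was 0.44 in uninduced and 0.64 in stimulated clone 2, and 0.32 and 0.44 in clone 1. Over the 18 gamma genes it was 0.57 and 0.39 in clone 1, and 0.20 and 0.27 in clone 2. These correlations are across genes, which are not independent, and all use the same WT libraries. Pcdhb21, next to last in the cluster, had 4.54, 5.66 and 4 CPM in uninduced WT libraries and 11.8, 11.8 and 11.6 in clone 2, with a log2 fold change of 1.32 ± 0.16 (adjusted p = 4.70e-08), and 1.33 ± 0.17 after stimulation. In clone 1 it was 0.43 ± 0.17 uninduced and 0.02 ± 0.18 stimulated.

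In the gamma cluster Pcdhga7 had 0.699, 2.57 and 3.09 CPM in uninduced WT libraries, 0, 0.107 and 0.259 in clone 1 and 0.803, 1.28 and 0.811 in clone 2. After stimulation it had 1.42, 2.55 and 1.49 CPM in WT, 0, 0.184 and 0 in clone 1 and 0.224, 0.196 and 0.541 in clone 2. Clone 1 was nearly without Pcdhga7 (7 counts uninduced and 5 stimulated over 3 libraries, against 142 and 121 in WT), and clone 2 lay between. The log2 fold change in clone 1 was -4.08 ± 0.74 uninduced (adjusted p = 2.81e-05) and -4.56 ± 0.78 stimulated (adjusted p = 1.01e-05). All 5 stimulated counts were in replicate 2, and the fitted value came to -8.29 without it. In clone 2 it was -2.48 ± 0.65 stimulated (adjusted p = 0.00185) and -1.16 ± 0.54 uninduced, where the adjusted p was 0.0751 and came to 0.00563 without WT uninduced replicate 1.

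Pcdhgb2 and Pcdhgb7, both abundant, were lower in clone 2. Pcdhgb2 had 27.1, 21.4 and 21 CPM in uninduced WT libraries, 16.1, 15.1 and 17.8 in clone 1 and 7.71, 7.08 and 5.79 in clone 2. It was lower in clone 2 than in WT by 1.73 ± 0.13 uninduced (adjusted p = 2.69e-12) and by 1.43 ± 0.15 stimulated (adjusted p = 9.52e-10). Pcdhgb7 had 38.8, 38.6 and 36.6 CPM in uninduced WT libraries, 29.0, 33.1 and 33.3 in clone 1 and 14, 15.6 and 14 in clone 2. It was lower in uninduced clone 2 by 1.38 ± 0.09 (adjusted p = 9.59e-14), whereas the stimulated value, -0.71 ± 0.10, missed the fold threshold. For both genes clone 2 was the lowest group in either treatment, without overlap.

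Pcdhga8 and Pcdhgb6 were higher in both stimulated clones. Pcdhga8 had 0.538, 0.518 and 0.361 CPM in stimulated WT libraries, 1.81, 1.11 and 1.46 in clone 1 and 1.34, 1.57 and 0.541 in clone 2, with log2 fold changes of 1.60 ± 0.49 (adjusted p = 0.00553) and 1.27 ± 0.51 (adjusted p = 0.0331). The clone 2 call was lost without WT stimulated replicate 1, 2 or 3 or clone 2 stimulated replicate 1 or 2 (adjusted p = 0.0547, 0.0596, 0.110, 0.104 and 0.151). In uninduced clone 1 Pcdhga8 was higher by 1.20 ± 0.46 (adjusted p = 0.0291), with an adjusted p of 0.0566 to 0.127 without WT uninduced replicate 2 or 3 or any 1 of the clone 1 libraries. Pcdhgb6 had 0.538, 0.777 and 1.26 CPM in stimulated WT libraries, 2.29, 3.24 and 2.32 in clone 1 and 1.90, 1.5 and 2.1 in clone 2. Its log2 fold changes were 1.60 ± 0.33 (adjusted p = 0.000136) and 1.09 ± 0.35 (adjusted p = 0.00937). The clone 2 value came to 0.85 without WT stimulated replicate 1 and to 0.98 without clone 2 stimulated replicate 3.

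Between the clones themselves, 5 members were higher in clone 1 (background 4.89%) and 5 lower (background 3.78%) in uninduced cells, and 5 were higher (background 5.50%) and 4 lower (background 4.48%) after stimulation. Under both treatments Pcdhb6, Pcdhgb2 and Pcdhgb7 were higher and Pcdh1, Pcdh19 and Pcdhb11 lower in clone 1. For Pcdhgb2 the difference was 1.23 ± 0.13 uninduced and 1.43 ± 0.15 stimulated, and for Pcdhgb7 it was 1.13 ± 0.09 and 1.03 ± 0.09, the stimulated value coming to 0.95 without clone 2 stimulated replicate 1. Pcdhb6 was rare, with 58 and 28 counts over the 3 libraries of uninduced and stimulated clone 1 against 22 and 4 in clone 2 and 12 and 8 in WT. Its difference between the clones was 2.02 ± 0.64 uninduced (adjusted p = 0.0116) and 2.29 ± 0.88 stimulated (adjusted p = 0.0341). The uninduced call was lost without clone 1 replicate 1 or clone 2 replicate 2 or 3 (adjusted p = 0.0864, 0.0592 and 0.0550). The stimulated one was lost without clone 1 replicate 1 or 2 or any 1 of the clone 2 libraries (adjusted p from 0.0571 to 0.141).

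The non-clustered members gave the widest differences between uninduced clones and WT (Pcdh10, without a count in uninduced WT) and between the clones (Pcdh1). This did not hold in every comparison. In stimulated clone 1 against WT the widest value was that of a gamma gene, Pcdhga7 (-4.56). On stimulation of WT it was that of a beta gene, Pcdhb13 (-2.90). Pcdh7, an adhesion protein that binds protein phosphatase 1 inside the cell, was raised by stimulation and lower in the clones. It had 57.3, 42.1 and 47.7 CPM in uninduced and 121, 124 and 115 in stimulated WT libraries. In clone 1 it had 17.0, 18.6 and 15.8 CPM uninduced and 51.6, 59.5 and 58.4 stimulated, and in clone 2 it had 20.2, 19.0 and 21.7 uninduced and 88.42, 90.05 and 86.24 stimulated. The mean rose 2.45-fold in WT, 3.30-fold in clone 1 and 4.34-fold in clone 2, with log2 fold changes of 1.30 ± 0.08, 1.72 ± 0.09 and 2.12 ± 0.09. Every clone library was below every WT library of the same treatment. Against WT it was lower in uninduced clone 1 by 1.51 ± 0.09 (adjusted p = 1.37e-14), in uninduced clone 2 by 1.27 ± 0.09 (adjusted p = 2.53e-13) and in stimulated clone 1 by 1.09 ± 0.08. In stimulated clone 2 the value was -0.45 ± 0.08, short of the fold threshold. The response was larger than in WT by 0.43 ± 0.12 in clone 1 (adjusted p = 0.00667) and by 0.83 ± 0.12 in clone 2 (adjusted p = 1.57e-06).

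Pcdh1 (chr18:38185914-38212053), a protocadherin of epithelial and other tissues, split the clones. It had 3.32, 8.07 and 5.87 CPM in uninduced WT libraries, 2.00, 1.07 and 2.48 in clone 1 and 53.2, 49.2 and 51.9 in clone 2. After stimulation it had 2.20, 1.94 and 2.93 CPM in WT, 0.106, 0.0737 and 0.137 in clone 1 and 21.7, 21.9 and 18.5 in clone 2. In both treatments clone 2 was highest and clone 1 lowest, without overlap. The mean in clone 2 was 8.94 times that of WT uninduced and 8.78 times stimulated, with log2 fold changes of 3.15 ± 0.20 (adjusted p = 9.60e-12) and 3.13 ± 0.23. Clone 1 was lower than WT by 1.64 ± 0.27 uninduced (adjusted p = 2.08e-05) and by 4.44 ± 0.53 stimulated (adjusted p = 2.18e-07), the latter from 7 counts in 3 libraries. Stimulation lowered it by 1.30 ± 0.25 in WT, 4.10 ± 0.56 in clone 1 and 1.31 ± 0.18 in clone 2, and the response of clone 1 differed from that of WT by -2.80 ± 0.68 (adjusted p = 0.00287). Of the 4 epithelial markers, 1 exceeded 1 CPM in uninduced clone 2 (0 in WT and 0 in clone 1). Their summed level was 2.81 to 3.41 CPM in uninduced clone 2, 0.697 to 3.52 in uninduced clone 1 and 0.472 to 1.34 in uninduced WT. It was 0 to 0.0560 in stimulated clone 2 and 0 in stimulated clone 1. In uninduced clone 2, 2 of the 4 were at 0. Their part in the level of Pcdh1 was not tested.

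**Figure D5:**
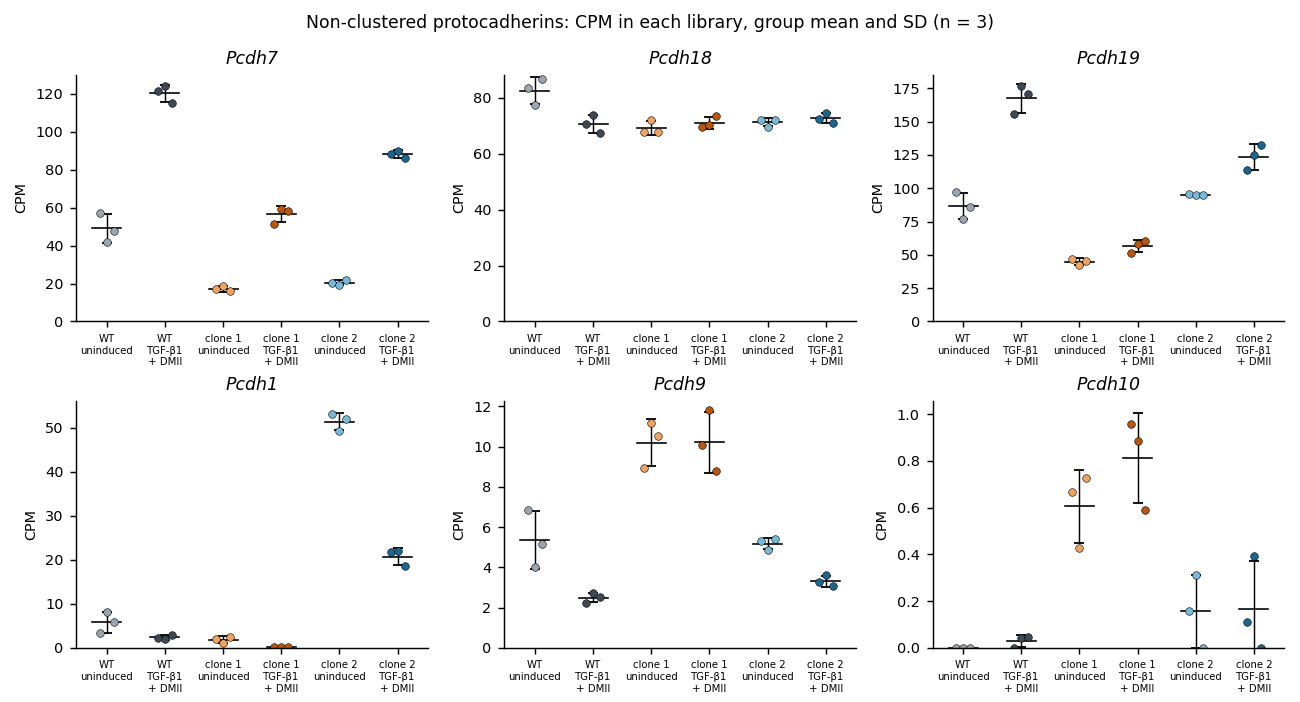
CPM of the 6 tested non-clustered members, with 1 panel per gene, 1 point per library, the group mean as a line and the SD as a bar (n = 3), each y axis starting at 0. Pcdh1 is high in clone 2 alone, Pcdh7 is higher after stimulation in all 3 genotypes, and Pcdh18 lies between 67.5 and 86.8 CPM in all 18 libraries.

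Pcdh19, an X-linked homophilic adhesion protein, had 97.0, 76.9 and 85.9 CPM in uninduced and 155, 176 and 171 in stimulated WT libraries. In clone 1 it had 47.0, 42 and 45.2 CPM uninduced and 51.4, 58.2 and 60.4 stimulated, and in clone 2 it had 95.4, 95.2 and 95.1 uninduced and 113, 125 and 133 stimulated. Clone 1 was lowest in both treatments and did not overlap with the other genotypes. Against WT the log2 fold change in clone 1 was -0.95 ± 0.08 uninduced (adjusted p = 2.60e-11), short of the fold threshold, and -1.56 ± 0.07 stimulated (adjusted p = 1.30e-16). Against clone 2 it was lower by 1.09 ± 0.08 and 1.12 ± 0.08. The values for stimulation were 0.95 ± 0.07 in WT, 0.34 ± 0.08 in clone 1 and 0.38 ± 0.07 in clone 2. The difference in response was -0.61 ± 0.11 in clone 1 (adjusted p = 4.18e-05) and -0.58 ± 0.10 in clone 2 (adjusted p = 5.69e-05).

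Pcdh18 was the steadiest of the abundant non-clustered members. Its group means ran from 69.2 to 82.5 CPM, and its log2 fold changes lay between -0.25 and 0.26 in all 11 comparisons. It was 83.5, 77.3 and 86.8 CPM in uninduced WT libraries, above the 67.6 to 72.2 CPM of both uninduced clones. Pcdh9, a homophilic adhesion protein known from brain, had 6.87, 4.03 and 5.14 CPM in uninduced and 2.25, 2.72 and 2.52 in stimulated WT libraries, 8.91, 11.2 and 10.5 and then 10.1, 11.8 and 8.79 in clone 1, and 5.28, 4.87 and 5.39 and then 3.25, 3.59 and 3.07 in clone 2. Clone 1 was above WT in every library. The log2 fold change of clone 1 against WT was 0.94 ± 0.17 uninduced (adjusted p = 4.02e-05), short of the fold threshold, and 2.03 ± 0.19 stimulated (adjusted p = 1.06e-10). Pcdh9 fell by 1.09 ± 0.19 on stimulation in WT, whereas the value was 0.01 ± 0.17 in clone 1, a difference in response of 1.09 ± 0.26 (adjusted p = 0.00119). Without WT uninduced replicate 1 the fall in WT was -0.88 and the difference 0.89, and without clone 1 stimulated replicate 2 the difference was 0.97, in each case past the adjusted p only.

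Pcdh10, which recruits the WAVE actin regulator in other cells, was almost absent from WT. It had 0 counts in the 3 uninduced and 2 in the 3 stimulated WT libraries, 35 and 55 in clone 1 and 14 and 8 in clone 2. Against the floor that 3 counts over a group allow, uninduced clone 1 was at least 12.7-fold higher and uninduced clone 2 at least 3.44-fold higher. After stimulation the ratio to WT was 26.7 in clone 1 (95% counting interval 7.04 to 226) and 5.29 in clone 2 (1.05 to 51.1). These intervals cover counting error only. edgeR's test called it higher in clone 1 uninduced (adjusted p = 0.000279) and stimulated (adjusted p = 0.000343) and in clone 2 uninduced (adjusted p = 0.0175). The clone 2 call was lost without WT uninduced replicate 3 (adjusted p = 0.0516) or clone 2 uninduced replicate 2 (adjusted p = 0.0615). All levels of Pcdh10 were low, at most 0.958 CPM in a library, and 1 clone 2 library of each treatment had no count.

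Genes that work with protocadherins were read from lists chosen by their known roles. Of 19 regulators of clustered promoter choice and cohesin, all tested, 0 were called in any of the 4 comparisons of a clone with WT by edgeR or by DESeq2. Of all tested genes edgeR called 15.1%, 15.1%, 19% and 16.9% (uninduced clone 1 and 2, then stimulated clone 1 and 2). In that order 11, 9, 13 and 13 regulators had an unadjusted p below 0.05, and 10, 9, 12 and 13 passed the adjusted p but not the fold threshold. For these counts no background was counted. The median log2 fold changes of the regulators in these comparisons ran from -0.14 to -0.01, against -0.02 to -0.01 over all tested genes. Stimulation lowered Dnmt3b, a de novo DNA methyltransferase, by 1.09 ± 0.36 in WT, 1.32 ± 0.37 in clone 1 and 1.08 ± 0.38 in clone 2, the only regulator called. Of 8 genes for the proteases that process protocadherins, 0 were called in those 4 comparisons (unadjusted p below 0.05 for 5, 4, 6 and 6, past the adjusted p for 4, 4, 6 and 6).

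Of 14 intracellular partners, 13 were tested. By comparison, in the order above, 3, 4, 1 and 2 were called, against 15.1%, 15.1%, 19% and 16.9% of all tested genes. In both clones in the same direction 3 were called, for which no share over all genes was counted. Wasf3, a WAVE subunit, was at 1.06 CPM in uninduced and 0.497 in stimulated WT cells and had at most 1 count in any group of the clones. Ret, a receptor tyrosine kinase linked to alpha and gamma protocadherins, was lower in both uninduced clones (0.0349 and 0.125 CPM against 1.73 in WT). Ptk2b, the focal adhesion type kinase that clustered protocadherins bind, was higher in uninduced clones by 1.78 ± 0.44 (adjusted p = 0.00196) and 1.5 ± 0.44 (adjusted p = 0.00714). Neither Ret nor Ptk2b was called in a stimulated clone against WT. For both genes the difference in response from WT was called in each clone, positive for Ret and negative for Ptk2b. In the Fat and Dachsous family 5 of 7 genes were tested, and 1, 2, 2 and 2 were called, against the same shares of all tested genes. Fjx1, which encodes a Golgi kinase-like protein, was lower in both clones in both treatments, with log2 fold changes of -1.66, -1.99, -1.81 and -2.71 in the order above. Dchs2, a giant cadherin, was lower in both stimulated clones (2 and 1 counts against 14 in WT).

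Of 30 protein-coding genes within 500000 bases of the clusters, 23 were tested. In each of the 4 comparisons of a clone with WT 2 were called, against 15.1% to 19% of all tested genes. Cd14, the receptor for bacterial lipopolysaccharide, was the gene called in both clones in both treatments, with log2 fold changes of 2.76 ± 0.17, 2.00 ± 0.17, 2.15 ± 0.18 and 1.84 ± 0.19 in the order above. The median log2 fold change of the 264 genes of at least 5 CPM on chromosome 18 ran from 0.10 to 0.18 in these 4 comparisons. On chromosome 3 (486 genes) it ran from 0.09 to 0.14, and on chromosome 5 (638 genes) from -0.23 to -0.15. The part of such chromosome-wide shifts in the values of the clustered members was not tested. Adipocyte markers (4 genes) summed to 30.4 to 42.9 CPM in stimulated clone 1 libraries, to 2.70 to 4.64 in clone 2 and to 0.293 to 1.22 in WT. All 4 were called higher in stimulated clone 1 than in WT, and Fabp4 and Plin1 in clone 2. Their part in the stimulated values of the clones was not tested.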

How the data were processed

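Bulk poly(A) RNA sequencing of 18 libraries was used. The authors mapped paired-end reads to GRCm38 (mm10) with HISAT2 and deposited raw counts per gene, with gene positions and lengths. Which program counted them, on which annotation release and with or without strand, is not given in the sources used here. Each column of counts was mapped to 1 library by its name, with 0 columns left unmapped. Coordinates equalled those of GENCODE M21 for 53462 of the 54409 shared gene identifiers, and that annotation gave shared exonic bases and neighbours. Promoters came from RefSeq, which held 9 members. Promoters and proteins of members on chromosome 18 were not used here.

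The analysis ran edgeR 4.0.16, DESeq2 1.42.0 and limma 3.58.1 under R 4.3.3, and tables and figures were made with Python 3.11.15, pandas 2.3.3, scipy 1.17.1 and matplotlib 3.10.9. Genes passing filterByExpr by group (minimum count 10; 14317 genes) were scaled with TMM, fitted with 1 mean per group (glmQLFit, robust) and tested with glmQLFTest for 11 comparisons. A call required a log2 fold change beyond 1 in either direction together with a p below 0.05 after Benjamini-Hochberg adjustment. The members and gene lists were chosen with earlier results of these data known, so no p was adjusted over the list and shares were not tested. Named clustered members were those with 1 of the 3 largest shares in a group, those called in both clones in 1 treatment, and those called between the clones in both treatments. All tested non-clustered members were named, and Pcdhb21 was added after its values were seen. The shares of Pcdhga1 and the per-kilobase levels of Pcdhb9, Pcdhb15 and Pcdhb20 were also given outside this rule. The closing sections name further members. Alternatives were DESeq2, its size factors, no filter, fits of the compared groups, a replicate block and each library left out, and for isoform use shares per kilobase, the exponential of the Shannon entropy and other limits of detection. The procedure was tested on simulated data. Floors are 3 counts over a group, intervals are 95%, and both cover counting error only.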

Additional observations from a re-analysis of the deposited data

Results flagged for a closer look

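The clones differed from each other in several protocadherins, by the test of the difference itself (edgeR's quasi-likelihood test, 3 libraries against 3, log2 fold change of clone 1 against clone 2, adjusted p below 0.05). In uninduced cells the widest was Pcdh1 (-4.79), followed among lower members by Pcdhga7 (-2.92), Pcdhb11 (-1.87), Pcdhga2 (-1.16) and Pcdh19 (-1.09). Higher in clone 1 were Pcdhga11 (3.53), Pcdhga12 (2.31), Pcdhb6 (2.02), Pcdhgb2 (1.23) and Pcdhgb7 (1.13). After TGF-β1 + DMII the lower members were Pcdh1 (-7.57), Pcdhb11 (-1.36), Pcdhb21 (-1.31) and Pcdh19 (-1.12), and the higher ones Pcdhb6 (2.29), Pcdh10 (2.28), Pcdh9 (1.63), Pcdhgb2 (1.43) and Pcdhgb7 (1.03). The response to stimulation differed between clone 1 and WT for Pcdh1 (-2.80) and Pcdh9 (1.09). Calls on Pcdhb6, Pcdhga2, Pcdhga12, Pcdh10, Pcdhgb7 (stimulated) and Pcdh9 (the response) were lost when single libraries were left out, with values of 1.68 to 1.89 for Pcdhb6 and 1.96 to 2.37 for Pcdhga12 in uninduced cells. Pcdhga11 had 60 counts in uninduced clone 1 and 8 in clone 2, all of the latter in replicate 1, and the value came to 7.40 without that library. Without the same library Pcdhga12 came to 3.92, and without clone 2 stimulated replicate 2 Pcdh10 came to 3.69. Groups of 3 libraries were not screened for single outlying libraries.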

How the results depend on the processing

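Counts of called members stayed within 1.5 times of the reported ones except as follows. With each library left out, the difference in response of clone 1 gave 1 to 3 calls and that of clone 2 gave 0 to 1. DESeq2 gave 1 call for clone 2 against 0. The other counts ranged without single libraries from 10 to 15 and 12 to 17 for clone 1 against WT (uninduced, stimulated), 10 to 14 and 8 to 10 for clone 2, 13 to 16, 13 to 16 and 11 to 16 for stimulation in WT, clone 1 and clone 2, and 7 to 10 and 6 to 10 between the clones. The WT responses of Pcdhga11 and Pcdhgc4, which were not called (-1.51 and -1.14), changed sign without WT uninduced replicate 1 (0.22 and 0.019), and ranged from -3.43 to 0.22 and from -1.52 to 0.019 with single libraries left out. Single genes kept direction and side of the threshold in 831 of the values with a library left out, fell below it in 88 and passed it in 57. Deviations from the group means showed no shared effect of replicate number. In these deviations 45 same-numbered pairs correlated between -0.041 and 0.050, and 4 of 18 libraries correlated best with their own number. Whether same-numbered libraries were prepared together is not stated, and such correlations cannot show it. With a replicate block the counts were 15, 13, 14 and 11 for the clones against WT (uninduced clone 1 and 2, then stimulated), 14, 16 and 14 for stimulation, 11 and 9 between the clones, and 2 and 0 for the differences in response. Per kilobase of unshared exon the effective number of beta isoforms was 8.86, 8.18, 6.64, 6.03, 8.33 and 7.93 (WT, clone 1 and clone 2, each uninduced and stimulated) and that of gamma 1.65, 1.49, 1.48, 1.32, 1.38 and 1.23. As the exponential of the Shannon entropy it was 10.8, 10.2, 9.15, 8.44, 10.3 and 9.95 for beta and 3.01, 2.56, 2.62, 2.08, 2.40 and 1.84 for gamma. Clone 1 had the lowest beta and WT the highest gamma value in each treatment by all 3 measures. It was not computed for alpha, where counts are too few. Detected alpha genes were 1 against 0 in stimulated WT cells with a mean of 0.1 CPM as limit, and 0 against 2 in uninduced clone 2 with counts scaled to the smallest group. The cause of these changes was not tested. Depth limits the alpha cluster, Pcdh10, Pcdhb6 and Pcdhga7, whose groups hold under 200 counts. It also limits other tested members. Among them were Pcdhga12, Pcdhga5, Pcdhgb1, Pcdhga11, Pcdhb2 and Pcdhga8, with 101, 103, 129, 143, 191 and 465 counts over all 18 libraries.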

Other observations

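Counts near the clusters that belong to no member were also read. Pcdhgb8, a polymorphic pseudogene in the gamma cluster, had 96 counts, with 12 and 10 in uninduced and stimulated WT cells, 29 and 9 in clone 1, and 34 and 2 in clone 2. Protein-coding read-through genes that start within the alpha cluster and end within the gamma cluster (Gm42416, Gm37013 and Gm37388) had 0 counts in all 18 libraries. The antisense gene BC037039 had 504 and 325 counts in uninduced and stimulated WT cells, 682 and 1089 in clone 1, and 781 and 558 in clone 2, summed over 3 libraries. With no filter beyond 1 count, members that were otherwise left out gave 3 calls, Pcdh8 lower in uninduced clone 2 than in WT (-4.83, adjusted p = 0.0457), Pcdhgb5 lower after stimulation in WT (-2.73) and Pcdha9 lower in stimulated clone 1 than in clone 2 (-3.67). Pcdh8 had 21 counts and Pcdha9 59 over all libraries, so these calls rest on few reads.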
